A study of Mus musculus with 3 samples.

Results

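Primitive erythroid cells were studied as the single-cell barcodes that held at least 1 UMI (unique molecular identifier, 1 captured mRNA molecule) of both Gata1 and Klf1 and at least 50 UMIs per 10,000 of the globin genes Hbb-bh1, Hbb-y, Hba-x and Hba-a1 together. These measured UMI counts are what the members were chosen by, among the barcodes that passed quality control (QC), which needed 1500 to 8500 detected genes, or at most 7500 in embryo 2, and no more than 10% mitochondrial UMIs. In all, 538 of 22168 such barcodes were members. They came from 3 single-cell libraries, each made from 1 whole wild-type mouse embryo of mixed C57BL/6 and 129 SvEv background, collected at embryonic day 8 with 0 to 2 somites by the labels, and all 3 libraries formed a single group with no treatment. Extraembryonic tissue had been taken away before the embryos were dissociated, so the yolk sac, where the first blood forms, was not sampled as a whole, and the number of blood cells in a library cannot be told apart from how much of that tissue stayed attached. The 3′ ends of transcripts were counted, so a level, given as UMIs of a gene per 1000000 UMIs (CPM), counts molecules and does not depend on gene length.

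Primitive erythroid cells are the first blood cells of the embryo. They arise from mesoderm in the blood islands of the yolk sac, next to the first endothelium, and enter the embryo with the start of the circulation as large nucleated cells that mature together in the bloodstream. Their maturation is governed by the transcription factors GATA1, which opens and activates most red cell genes, and KLF1, which binds CACCC elements of globin and other red cell promoters. Primitive cells make embryonic globins, the beta-like chains of Hbb-bh1 and Hbb-y and the alpha-like chain of Hba-x, beside the alpha chains of Hba-a1 and Hba-a2 that are also used in the fetus and adult, while Hbb-bs and Hbb-bt are the adult beta genes.

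The members were spread very unequally over the embryos. Embryo 1 held 0 members among 6129 QC barcodes, which allows a share of up to 0.0489% if 3 counts of the total are taken as the limit, and of up to 0.0602% by the 95% exact binomial interval. Embryo 2 held 455 among 8116, or 5.61% (95% exact binomial interval 5.12 to 6.13%), and embryo 3 held 83 among 7923, or 1.05% (0.835 to 1.30%). These intervals cover counting error only. Embryo 1 was the most deeply sequenced, with a median of 26705 UMIs per QC barcode against 14461 and 16242, and its QC barcodes still held only 30 UMIs of the 4 globins, against 168281 in embryo 2 and 24230 in embryo 3. Gata1 gave 43, 2266 and 1292 UMIs in embryos 1, 2 and 3, and Klf1 gave 51, 2220 and 805. Embryo 1 was thus lowest by every one of these counts, while its endothelial-gated barcodes, those with Kdr, Cdh5 and Pecam1, numbered 77 beside 107 and 151 in the others. Other lists also differed between these libraries, and the 14 visceral endoderm genes summed to 2167, 5895 and 4113 CPM of all QC barcodes in embryos 1, 2 and 3, while the 13 genes of allantois and extraembryonic mesenchyme summed to 969, 1095 and 1218. Embryo 1 was lowest in both. It was highest in the lists of neural and surface ectoderm, at 249, 191 and 204, and of paraxial and cardiac mesoderm, at 512, 445 and 353. Their part in the number of members was not tested, and all comparisons below rest on embryos 2 and 3.

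The globin share had no gap at the limit. Among the 707 QC barcodes of embryo 2 with both Gata1 and Klf1, 252 lay below it, and among the 292 of embryo 3, 209 did. The 3 barcodes just inside held 50.2, 50.2 and 50.5 globin UMIs per 10,000 in embryo 2 and 50.6, 51.3 and 51.8 in embryo 3, and the 3 just outside held 49.7, 49.5 and 49.3 in embryo 2 and 49.5, 49.5 and 49.0 in embryo 3. Within 10 UMIs per 10,000 of the limit lay 42 members and 38 barcodes outside in embryo 2, and 17 and 18 in embryo 3. The members are therefore a range of a continuous measure, and no clustering of the cells was run. Their median share was 131 per 10,000 in embryo 2, with a highest value of 620, and 73.1 in embryo 3, with a highest value of 276. Members of embryo 2 were thus not only more numerous but richer in globin, which chose them and is given as a description.

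**Figure D1:**
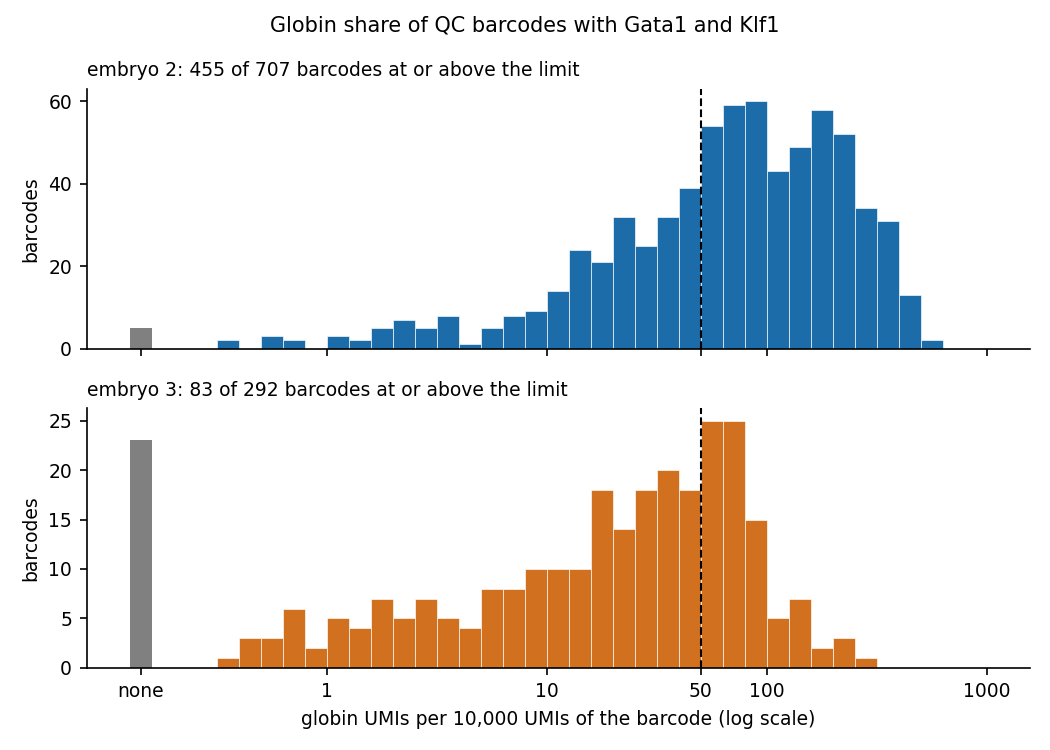
Number of QC barcodes with both Gata1 and Klf1 (y axis) by their globin UMIs per 10,000 UMIs (x axis, log scale, grey bar for none), with embryo 2 above and embryo 3 below and the limit of 50 as a dashed line. In embryo 2, 455 of 707 barcodes lie at or above the limit and in embryo 3, 83 of 292, with no gap at the line.

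Members and other barcodes of an embryo had similar depth. Members had medians of 15630 and 18368 UMIs in embryos 2 and 3, against 14359 and 16200 in the other QC barcodes, and fewer detected genes, at 3507 and 3802 against 3768 and 4024. Mitochondrial UMIs were a median of 2.33% and 2.54% in members and 2.84% and 3.09% in the others, and 3 members, all of embryo 2, were under 0.5%. Members summed to 7456614 and 1558120 UMIs, so values from embryo 3 are the less precise. Over the 455 and 83 members, the Spearman correlation of the globin share with UMIs per cell was 0.033 and -0.0098, with detected genes per cell -0.133 and -0.0811, and with the mitochondrial percent -0.0003 and -0.145. The 3 libraries had 18 to 22 barcode sequences in common by pairs, and none was a member in both.

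The label of erythroid cells was checked against 9 markers that the rule did not use. In embryos 2 and 3, the erythropoietin receptor Epor was at 87.4 and 70.6 CPM in members, Alas2 at 60.8 and 56.5, Tal1 at 139 and 125, Gfi1b at 51.1 and 69.3, Nfe2 at 26.0 and 24.4, Cited4 at 366 and 374, Car2 at 550 and 567, and Hemgn at 8.32 and 7.06. These 8 were higher in members than in the other barcodes by the test described below. Slc4a1, the anion exchanger of mature red cells, was at only 0.671 and 0.642 CPM, too low to be tested. Of the macrophage and white cell markers there was no UMI of Ptprc, Csf1r, Tyrobp, Adgre1, C1qa or C1qb in the members of either embryo. These genes were at 0.0723 CPM or less in the other barcodes too, so their absence says little about the label. Among the markers of that list found in members, Spi1 was at 0.939 and 3.85 CPM, Cd68 at 2.28 and 0.642, and Lyz2 at 0 and 1.28.

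The promoters of 5 genes are printed next, since they belong to 3 of the 4 globin genes of the rule and to Alas2 and Epor, which were among the genes higher in members. Hbb-bh1, the remaining globin gene of the rule, had no entry among the RefSeq promoters used, so it is neither printed nor counted below. Each run is the 250 bases before the transcription start in RefSeq, on build GRCm38.p6 (the assembly of mm10), written from 5′ to 3′ on the strand of the gene, and capitals mark every match on either strand to the GATA motif AGATAA, to the other GATA motif searched, TGATAA, or to the CACCC-type motif CCACCC. They stand at chr11:32276350-32276599 (plus strand) for Hba-x, chr7:103853208-103853457 (minus) for Hbb-y, chr11:32283422-32283671 (plus) for Hba-a1, chrX:150547167-150547416 (plus) for Alas2 and chr9:21963577-21963826 (minus) for Epor.
Hba-x: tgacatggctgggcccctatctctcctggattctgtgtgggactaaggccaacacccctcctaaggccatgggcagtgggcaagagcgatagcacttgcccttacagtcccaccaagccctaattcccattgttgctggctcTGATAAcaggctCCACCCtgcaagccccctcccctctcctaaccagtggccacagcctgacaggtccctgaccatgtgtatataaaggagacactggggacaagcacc
Hbb-y: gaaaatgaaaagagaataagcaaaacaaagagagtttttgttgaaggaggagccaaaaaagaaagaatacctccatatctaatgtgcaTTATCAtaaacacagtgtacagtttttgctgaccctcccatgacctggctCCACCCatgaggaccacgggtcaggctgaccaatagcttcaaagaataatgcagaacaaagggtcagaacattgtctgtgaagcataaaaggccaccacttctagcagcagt
Hba-a1: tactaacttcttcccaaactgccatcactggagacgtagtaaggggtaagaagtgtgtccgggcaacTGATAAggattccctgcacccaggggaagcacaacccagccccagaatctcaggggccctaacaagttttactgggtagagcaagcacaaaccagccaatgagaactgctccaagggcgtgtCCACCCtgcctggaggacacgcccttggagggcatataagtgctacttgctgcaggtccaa
Alas2: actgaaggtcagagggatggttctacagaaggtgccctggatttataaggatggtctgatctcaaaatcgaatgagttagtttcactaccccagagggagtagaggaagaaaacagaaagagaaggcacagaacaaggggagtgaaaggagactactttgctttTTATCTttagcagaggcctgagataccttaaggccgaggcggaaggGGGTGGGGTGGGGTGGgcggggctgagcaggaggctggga
Epor: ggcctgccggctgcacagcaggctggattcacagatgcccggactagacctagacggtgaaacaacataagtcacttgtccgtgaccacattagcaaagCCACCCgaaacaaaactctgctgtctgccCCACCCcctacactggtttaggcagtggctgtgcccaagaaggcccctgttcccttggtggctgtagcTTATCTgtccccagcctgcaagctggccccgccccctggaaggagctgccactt
In Hba-x the matches to TGATAA and CCACCC began 108 and 96 bases before the start, so that 6 bases part them. In Hbb-y the TGATAA match, on the opposite strand, began 162 bases before the start and CCACCC 112, and in Hba-a1 they began 183 and 61 bases before it. Alas2 held AGATAA on the opposite strand 86 bases before the start and 3 overlapping CCACCC matches on that strand, and Epor held AGATAA on the opposite strand 54 bases before the start and 2 CCACCC matches. Of the 9 globin genes that the promoter table held, 6 had a GATA match, 5 had CCACCC and 4 had both, namely Hba-x, Hbb-y, Hba-a1 and Hba-a2, beside shares of 16.6%, 28.1% and 3.45% of all 32851 promoters. A match is a run of letters and not a bound site. Among other lists both motifs were found for 1 of 7 heme synthesis genes, 3 of 16 red cell membrane genes and 1 of 20 erythroid transcription regulators that could be matched. For Gata1 and Klf1 they were found together in 0 of 2 genes. These lists were counted by gene, and their genes had 10, 18, 33 and 2 promoters, whereas the shares above are of promoters.

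The 4 globins of the rule made up 1.61% of the members' UMIs in embryo 2 and 0.875% in embryo 3, and the embryonic genes Hbb-bh1 and Hba-x led. The values that follow are levels in CPM, and those of the 4 globins of the rule are descriptions, with no test. Hbb-bh1 (chr7:103841638-103843162), an embryonic beta-like chain, was the most abundant at 8026 and 5228, and every member held it. Hba-x (chr11:32276600-32278116), the embryonic alpha-like chain also called zeta, followed at 7241 and 2936. Hba-a1 (chr11:32283672-32284486) was at 603 and 383. Hbb-y (chr7:103851754-103853207), the embryonic beta-like chain also called epsilon-y, was at 234 and 199 and was found in only 38.5% and 44.6% of members. In barcodes that held Sox2, a neural and surface ectoderm marker, and neither Gata1 nor Klf1, Hbb-bh1 was at 21.3 and 3.95 and Hba-x at 16.8 and 1.56, with Hbb-bh1 in 32.9% and 9.62% of these barcodes at median depths of 18558 and 23516 UMIs. This was taken as the background from free RNA, which was not tested. Members lay far above it in level, which the globin limit of the rule largely fixed in advance. Hba-a2 was at 77.8 and 48.8, Hbb-bs at 149 and 152 and Hbb-bt at 42.5 and 16.0 in members. Hba-a1 and Hba-a2 are near-identical copies, as are Hbb-bs and Hbb-bt, and reads may have been lost or split between them.

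The balance of the globins shifted along the globin share, and the members of each embryo were divided by that share into 3 groups of equal size, called globin-low, globin-middle and globin-high. Hba-x relative to Hbb-bh1 was 0.563, 0.740 and 1.11 from globin-low to globin-high members of embryo 2 and 0.387, 0.507 and 0.695 in embryo 3, and it was lower still, at 0.397 and 0.239, in the barcodes with Gata1 and Klf1 below the limit. Hba-x thus rose more steeply than Hbb-bh1 in both embryos. Hba-a1 relative to Hba-x ran the other way, at 0.133, 0.0924 and 0.0710 in embryo 2 and 0.171, 0.147 and 0.109 in embryo 3. Hbb-y relative to Hbb-bh1 was 0.0137, 0.0222 and 0.0385 in embryo 2 and 0.0372, 0.0178 and 0.0515 in embryo 3. Among members its highest value was thus in the globin-high group of both embryos, while the other 2 groups were in opposite order. Below the limit this ratio was 0.0312 in embryo 2, above the globin-low and globin-middle values. In embryo 3 it was 0.0585 there, above all 3 groups of members. All 4 genes set the share by which the groups were divided, so these ratios are descriptions.

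**Figure D2:**
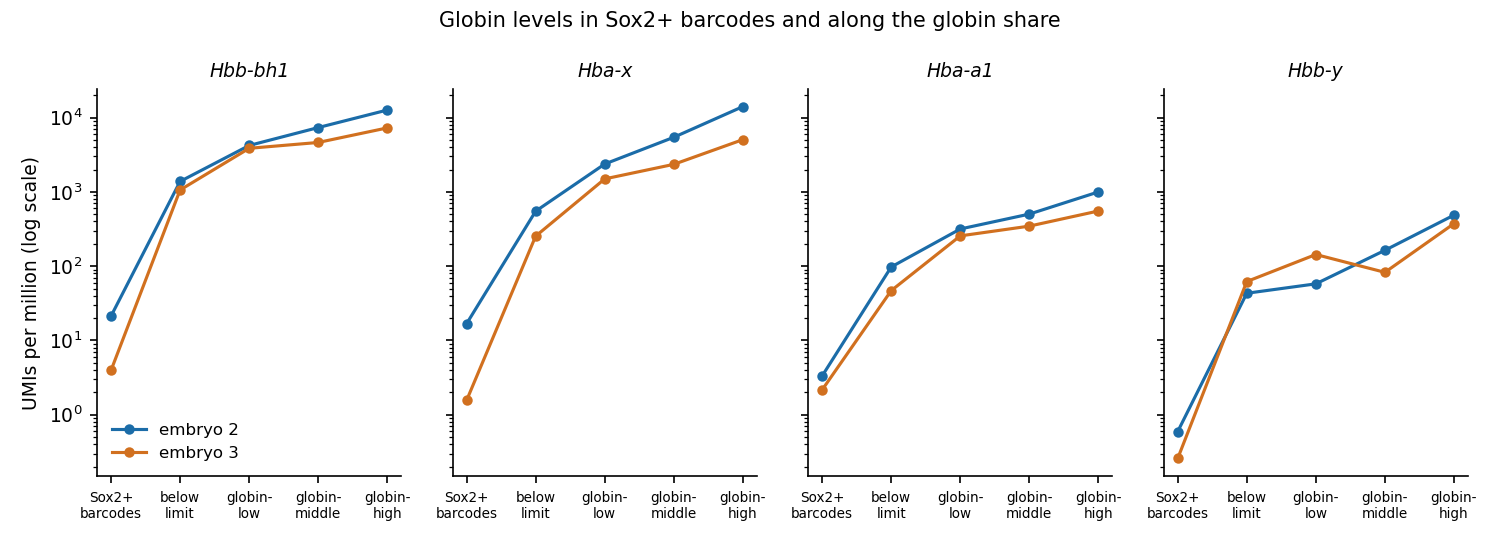
Level in CPM (y axis, log scale) of the 4 globin genes of the rule, in 1 panel each, in Sox2-positive barcodes without Gata1 and Klf1, in barcodes with both below the globin limit and in the 3 groups of members by globin share, with 1 line per embryo. Hba-x climbs from 2376 to 14095 CPM between globin-low and globin-high members of embryo 2 and Hbb-bh1 from 4221 to 12671.

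Single members differed widely in this balance. The share of Hba-x in the sum of Hba-x and Hbb-bh1 UMIs had a median of 45.4% in embryo 2 (quartiles 28.9 and 55.9%) and 32.3% in embryo 3 (12.7 and 50.8%), and it reached from 0 to 90.0% and from 0 to 99.3%. Hba-x exceeded Hbb-bh1 in 180 of 455 members of embryo 2 and 21 of 83 of embryo 3, and 4 and 6 members had no Hba-x. The quartiles were 14.6 and 54.1% in globin-low and 43.9 and 60.1% in globin-high members of embryo 2, and 4.92 and 48.4% and 24.1 and 51.2% in embryo 3, whose globin-middle members were the most spread, with 10.8 and 55.0%. Hbb-y was as uneven, with no UMI in 280 and 46 members and up to 190 and 70 UMIs in 1 member.

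Within members, adult beta-globin UMIs were few, and most of the members' UMIs of these genes lay in a minority of them. Hbb-bs and Hbb-bt together gave 1425 UMIs in members of embryo 2 and 262 in members of embryo 3. All QC barcodes of these embryos held 2155 and 1522, so in embryo 3 most lay outside members. Such UMIs were found in 252 of 455 and 41 of 83 members. The 41 and 6 members with at least 10 of them held 58.2% and 66.0% of the members' adult beta UMIs, and the highest single values were 64 and 74. Relative to Hbb-bh1, adult beta UMIs were at 0.0238 and 0.0322 in members. In the Sox2-positive barcodes this ratio was 0.0288 in embryo 2, close to that of members, but 1.94 in embryo 3, where 596 adult beta UMIs stood beside 307 of Hbb-bh1. Of the Hbb-bs UMIs behind the latter, 160 of 536 lay in 1 barcode, so this ratio rests in part on few barcodes.

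Expression in members was next compared with all other QC barcodes of the same embryo. UMIs were summed per embryo and class, all 10 globin genes, Gata1 and Klf1 were taken out, and the sums of embryos 2 and 3 were tested with the quasi-likelihood test of edgeR, with p-values adjusted over all 15547 genes tested (threshold 0.05). Both classes of an embryo come from 1 animal and 1 library. Of all genes tested, 23.7% were higher and 31.3% lower in members, with a median log2 fold change of -0.27, and each list is to be read against these shares. Fold changes are given after TMM scaling without the globins, and they lay a median of 0.348 above the log2 ratio of the CPM printed here, so a gene at like CPM in both classes can be called higher. Scaled by all UMIs with no TMM factors, a choice added after the data had been seen, 12.7% were higher and 44.1% lower.

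Heme synthesis genes were higher as a group. Of the 9 enzymes, 8 were higher in members and 1 was lower, with a median log2 fold change of 2.34. Alas2, the erythroid form of the first and rate-limiting enzyme, was at 60.8 and 56.5 CPM in members and 2.99 and 1.56 in the other barcodes, a log2 fold change of 5.06 ± 0.24 (SE, adjusted p = 1.64e-10, edgeR). Cpox, which acts in the last mitochondrial part of the pathway, was the most abundant at 468 and 443 against 78.9 and 63.4, a log2 fold change of 3.03 ± 0.10. Alad, which acts early in the cytosol, rose by 2.34 on the log2 scale. The lower gene was Alas1, the housekeeping form of the first enzyme, at 5.10 and 6.42 against 14.1 and 11.2, a log2 fold change of -0.88 ± 0.24. The 2 forms of the first enzyme thus moved in opposite directions. Of 22 genes of heme and iron handling 18 were higher and 1 lower, or 3 lower with the embryo as a block, and 13 higher and 3 lower scaled by all UMIs with no TMM factors, with a median of 0.94. Blvrb, a biliverdin reductase, was at 411 and 344 against 35.8 and 25.8, and Slc25a37, the mitochondrial iron importer mitoferrin 1, at 124 and 115 against 15.6 and 13.0. The transferrin receptor Tfrc, at 91.3 and 91.8 against 41.8 and 42.7, and the ferritin gene Fth1, at 5660 and 5547 against 3378 and 2777, had smaller log2 fold changes of 1.46 and 1.21. Slc40a1, the iron exporter ferroportin, was lower, at 1.34 and 0.642 against 6.54 and 5.90.

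Of 23 tested genes of the red cell membrane and cytoskeleton 20 were higher and 1 lower, with a median log2 fold change of 4.34, the highest of the 17 lists. Ank1, which anchors spectrin to the membrane, was at 27.5 and 18.6 CPM in members against 0.983 and 0.499, and Epb42, its partner protein 4.2, at 19.6 and 17.3 against 0.709 and 0.426, with log2 fold changes of 5.40 and 5.41. Smim1, the Vel blood group protein, was the most abundant of the list in embryo 2, at 305 and 267 against 33.2 and 22.7. The lower gene was the glucose transporter Slc2a1, at 70.5 and 71.2 against 379 and 386, a log2 fold change of -2.09 ± 0.09. It was lower in both embryos.

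Of 24 erythroid transcription regulators 17 were higher, 1 lower and 6 did not pass the test, with a median of 2.71, or 16 higher and 5 lower scaled by all UMIs with no TMM factors. Tal1, Lmo2 and Zfpm1, whose products act in complexes with GATA1, were among the higher genes, and Tcf3, whose product also does, was at 80.2 and 78.3 CPM against 110 and 109, did not pass with TMM scaling and was lower without it. Tal1 was at 139 and 125 CPM against 16.1 and 17.04, Lmo2 at 447 and 442 against 49.8 and 43.0, and Zfpm1, the GATA cofactor FOG1, at 296 and 341 against 54.5 and 51.8, with log2 fold changes of 3.36, 3.61 and 2.92. Gfi1b, a repressor needed for red cells and platelets, was at 51.1 and 69.3 against 3.65 and 2.88. Cited4 had a log2 fold change of 4.81 and the related Cited2, at 1062 and 1029, was the most abundant of the list. Bcl11a, a repressor of embryonic globin genes in definitive cells, was lower, at 0.134 and 0.642 against 1.35 and 3.58 (adjusted p = 0.019, edgeR). Its levels in members were under the 0.402 and 1.93 CPM that 3 counts make there, so the size of this difference is uncertain. Gata2, a factor of progenitors, was at 5.90 and 15.4 against 6.31 and 8.53 and did not pass the test (adjusted p = 0.187, edgeR), but passed as higher with the embryo as a block (adjusted p = 0.032).

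Cytokine signaling genes were mixed, with 7 of 12 higher and 4 lower. Epor was at 87.4 and 70.6 CPM against 6.13 and 3.48, a log2 fold change of 4.43 ± 0.22, and Pim1, a survival kinase, at 155 and 142 against 50.2 and 46.9. The stem cell factor receptor Kit, at 16.4 and 17.3 against 11.6 and 12.9, differed by only 0.78 ± 0.17, and Socs2, a feedback inhibitor, was lower by the test at 6.84 and 11.6 against 31.7 and 33.2. Csf2rb, the common beta chain of several cytokine receptors, had one of the 10 largest log2 fold changes of all genes at 20 CPM or more, at 28.3 and 37.2 against 1.21 and 0.553. Of 16 redox and red cell enzyme genes 13 were higher and 2 lower, and Car2, a carbonic anhydrase, at 550 and 567 against 64.4 and 51.6, was among the higher. The peroxide-removing Prdx2 and Gpx1 were more abundant, at 2213 and 2034 and at 1023 and 984, with log2 fold changes of 1.57 and 1.77. Bnip3l, which acts in the removal of mitochondria from maturing red cells, was lower, at 117 and 105 against 213 and 222.

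Growth genes were mostly higher, while the calls of cell cycle genes depended on the scaling. Of 16 ribosome biogenesis and growth genes 15 were higher, with a median of 1.06, and the only lower gene was Mycn, at 9.25 and 2.57 CPM against 45.7 and 41.2. Its relative Myc was higher, at 75.8 and 77.7 against 18.5 and 15.6, a log2 fold change of 2.51 ± 0.13. Of 20 genes of G1/S and S phase 16 were higher and 2 lower, and of 20 genes of G2/M 12 were higher and 1 lower, with medians of 0.50 and 0.39. Scaled by all UMIs with no TMM factors, 14 of the growth genes were higher and 1 lower, 8 of the G1/S genes were higher and 2 lower, and 5 of the G2/M genes were higher and 6 lower, with medians of 0.711, 0.149 and 0.0437 on the log2 scale. Of the G2/M genes Mki67 had the highest fold change, at 267 and 258 against 173 and 172, Top2a was called higher at 395 and 413 against 379 and 420, a log2 fold change of 0.36 that did not pass with no TMM factors, and Cenpf was lower, at 187 and 195 against 352 and 390. With the embryo as a block 2 of the G2/M genes were lower. The D cyclins, which drive entry into the cycle, differed in direction. Ccnd1 was at 12.7 and 4.49 against 200 and 211, a log2 fold change of -3.89 ± 0.18 (adjusted p = 1.33e-10, edgeR), while Ccnd3 was at 319 and 336 against 111 and 107 and Ccnd2 at 400 and 684 against 291 and 354. Of 9 cell cycle inhibitors 2 were higher and 4 lower, or 1 and 5 scaled by all UMIs with no TMM factors. Cdkn1c, the inhibitor p57, was at 20.3 and 13.5 against 242 and 228, and Btg2 rose to 63.6 and 48.8 against 12.3 and 7.84.

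By the fixed rule of the 10 largest changes each way at 20 CPM or more, the genes higher in members included Csf2rb, Kcnn4, Ank1, Trim10, Alas2, Slc38a5, Nfe2 and Tspan32, with log2 fold changes from 4.87 to 5.52. Kcnn4 is the calcium-gated potassium channel of red cells, and Slc38a5 an amino acid transporter. The genes lower in members were Pcdh19, Wnt5a, Foxb1, Smarca1, Nefm, Sulf1, Trim2, Sox2, Nkx1-2 and Ina, among them a Wnt ligand and genes of neural tissue. All had the same sign in both embryos, as the rule required.

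**Figure D3:**
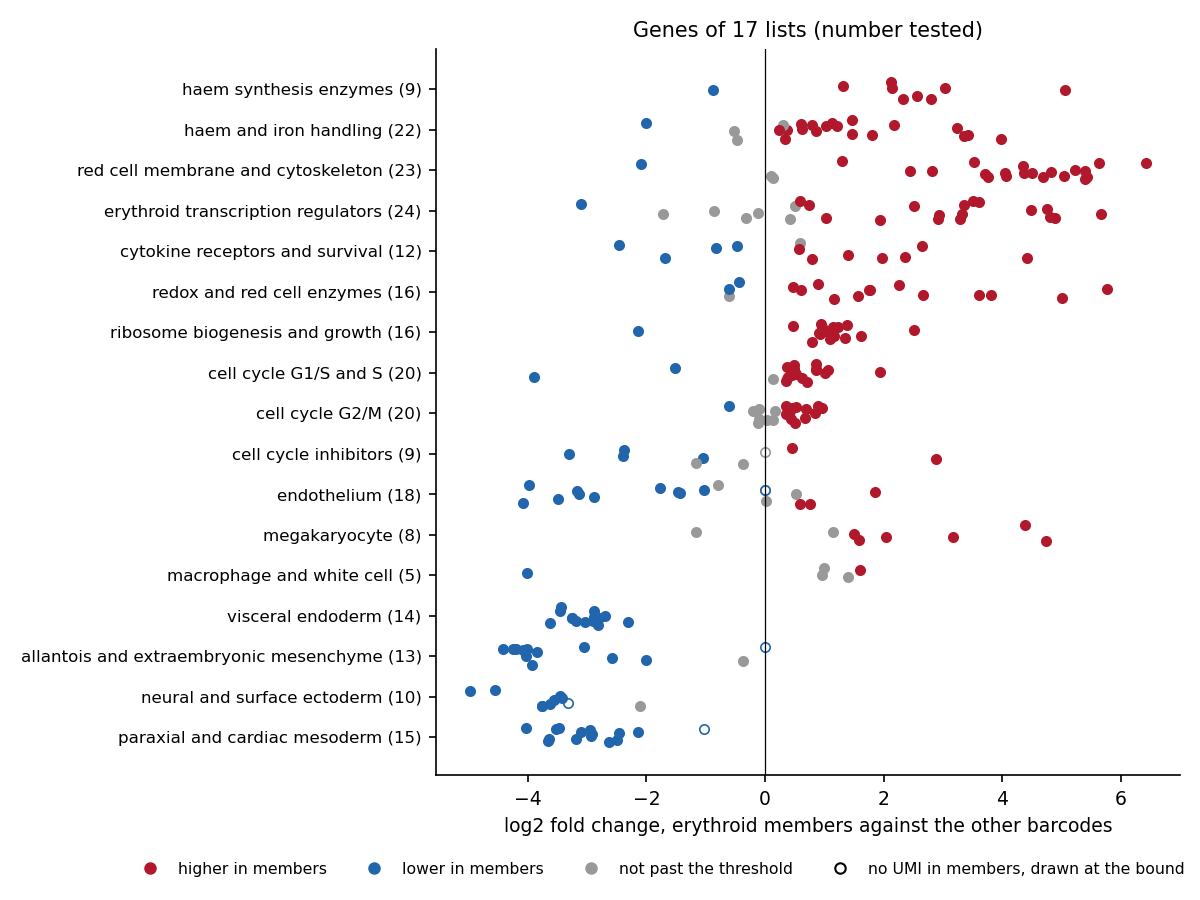
Log2 fold change (x axis) of each tested gene of 17 lists (rows, number tested in brackets) in erythroid members against all other QC barcodes of embryos 2 and 3, red where higher and blue where lower at an adjusted p under 0.05 and grey otherwise, with open points for genes without a UMI in members at the bound that 3 counts allow. Membrane, heme and transcription regulator genes lie mostly to the right, and genes of visceral endoderm, allantois, ectoderm and paraxial and cardiac mesoderm mostly to the left.

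Markers of other cell types were mostly lower in members. All 14 visceral endoderm genes, 12 of 13 of allantois and mesenchyme, 9 of 10 of neural and surface ectoderm and 15 of 15 of paraxial and cardiac mesoderm were lower. They were not at 0, and the visceral endoderm list summed to 491 and 695 CPM in members against 6187 and 4145 in the others, with Apoe the most abundant gene at 144 and 188. At least 3 genes of that list were found in 49.7% and 49.4% of members and in 65.1% and 65.8% of the other barcodes. The allantois, neural and paraxial lists summed to 95.4 and 61.6, 11.7 and 9.63, and 41.2 and 19.9 CPM in members, and 18, 4 and 14 members of embryo 2 and 2, 0 and 0 of embryo 3 held 3 or more of their genes. No doublet caller was run. Of the 13 macrophage and white cell genes only 5 were tested, of which Spi1 was higher, at 0.939 and 3.85 CPM against 0.694 and 0.626, and Coro1a was lower. Spi1 rested on few UMIs and did not pass when scaled by all UMIs with no TMM factors.

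Megakaryocyte genes stood apart from the other lists of foreign markers. Of 8 tested genes 6 were higher in members and 0 lower. Itga2b, the platelet integrin chain CD41 that also marks the earliest blood progenitors, was at 54.9 and 64.2 CPM against 3.45 and 2.11, and Fermt3, a blood cell integrin activator, at 84.8 and 66.8 against 6.07 and 3.47. The list's most abundant gene, Rap1b, is widely expressed, and the platelet-restricted genes were at or near 0. Pf4, at 0.536 and 1.93, passed as higher without the embryo as a block (adjusted p = 0.0251, edgeR). It passed neither with the block (adjusted p = 0.0778) nor scaled by all UMIs with no TMM factors. Gp1ba, at 0.939 and 0.642 against 0.152 and 0.0973, passed as higher without the block (adjusted p = 0.00128, edgeR). It also passed with the block (adjusted p = 0.019) and with no TMM factors. Its level in members of embryo 3 was under the 1.93 CPM that 3 counts make there. No UMI of Gp1bb, Gp6 or Ppbp was found in members of either embryo. Of 18 endothelial genes 11 were lower, 3 were higher and 4 did not pass. Kdr was at 3.08 and 1.93 against 27.5 and 38.2 and Cdh5 at 0.402 and 0.642 against 4.38 and 4.07, whereas Pecam1 was higher, at 15.6 and 12.8 against 4.90 and 5.51, as were Egfl7 and Ets1, both of which did not pass when scaled by all UMIs with no TMM factors.

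Endothelial cells share their mesodermal origin with the first blood, and members were compared with the 107 and 151 barcodes of embryos 2 and 3 that held Kdr, Cdh5 and Pecam1. No member was among these. With those 3 genes also taken out, 2427 of 9619 genes (25.2%) were higher in members and 2785 (29%) were lower by edgeR, or 15.7% and 38% scaled by all UMIs with no TMM factors. Of the erythroid transcription regulators 15 of 21 were higher and 3 lower, and of the heme synthesis genes 8 of 9 were higher. The regulators differed widely in size of change. Tal1, the factor that starts blood formation, was at 139 and 125 CPM in members and 128 and 148 in endothelial-gated barcodes, and the difference of 0.20 ± 0.11 on the log2 scale did not pass the test (adjusted p = 0.143, edgeR). Lmo2, at 447 and 442 against 370 and 372, and its cofactor Cbfa2t3, at 76.3 and 96.9 against 74.96 and 76.9, differed by only 0.50 and 0.38, and Cbfa2t3 did not pass when scaled by all UMIs with no TMM factors. Runx1, at 155 and 194 against 49.2 and 54.5, Gfi1b, at 51.1 and 69.3 against 18.0 and 14.6, and Nfe2, at 26.0 and 24.4 against 3.67 and 2.59, had log2 fold changes of 1.96, 2.06 and 3.27.

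Gata2 and Lyl1, which with Klf3 were the 3 lower regulators, and Kit are known from stem and progenitor cells. Gata2 was at 5.90 and 15.4 CPM in members and 33.1 and 42.5 in endothelial-gated barcodes, a log2 fold change of -1.98 ± 0.30, Lyl1 at 11 and 8.34 against 28.3 and 33.1, and Kit at 16.4 and 17.3 against 42.3 and 38.3. The ETS factors of endothelium were far lower, with Fli1 at 10.1 and 12.2 against 246 and 279, a log2 fold change of -4.39 ± 0.14, and Etv2, which specifies blood and vessel progenitors, at 10.2 and 14.8 against 172 and 192. All 14 tested endothelial genes were lower. Cldn5, the tight junction protein claudin 5, had no UMI in members and was at 94.4 and 64.9 in endothelial-gated barcodes, at least 235-fold and 33.7-fold lower against 3 counts per embryo, and Erg, at 15.1 and 18.2, was at least 37.4-fold and 9.43-fold lower. In the other direction Ank1 had no UMI in endothelial-gated barcodes, at least 24.9-fold and 19.1-fold below its level in members. Blvrb was at 411 and 344 against 26.5 and 18.5. The megakaryocyte list gave 2 genes higher, Itga2b and Fermt3, or 3 with Rap1b with the embryo as a block, and 3 lower, among them Pf4 at 0.536 and 1.93 against 4.04 and 4.54. Fermt3 turned to a log2 fold change of -0.297 without members holding 3 or more genes of any other list, a filter that uses the list Fermt3 belongs to.

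**Figure D4:**
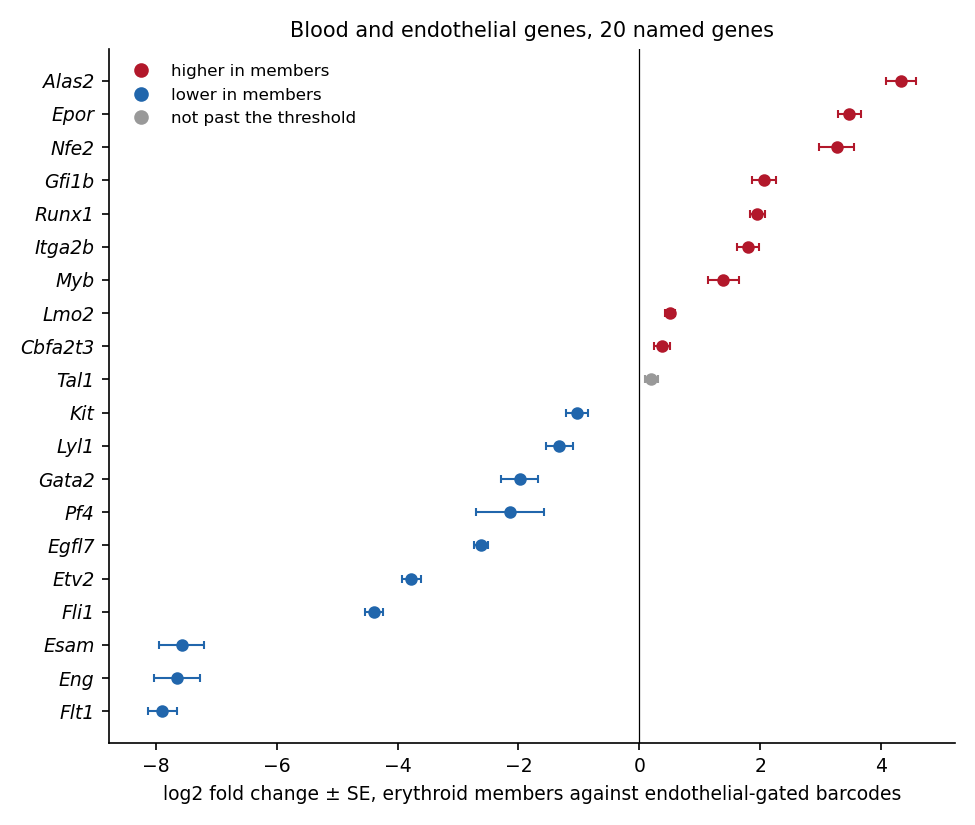
Log2 fold change with its SE (x axis) of 20 named genes in erythroid members against endothelial-gated barcodes of embryos 2 and 3, red where higher and blue where lower at an adjusted p under 0.05 and grey otherwise. Alas2 and Epor lie farthest to the right at 4.33 and 3.48, Tal1 lies near 0 at 0.20, and Flt1, Eng and Esam lie farthest to the left.

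The barcodes with Gata1 and Klf1 but less globin than the limit allowed a comparison within the erythroid gate, which was added after the data had been seen. They numbered 252 and 209, with median depths of 15648.5 and 16323 UMIs per barcode. By edgeR 328 of 9721 genes (3.37%) were higher in members and 513 (5.28%) lower. With the embryo as a block, which fits the design because both classes come from the same animals, the numbers were 958 (9.85%) and 968 (9.96%). Without the block, the 328 and 513 fell to 73 and 102 when barcodes that held 3 or more allantois, neural or paraxial genes were left out. They fell to 31 and 70 with each cell thinned to 5000 UMIs, and to 127 and 130 with DESeq2. Scaled by all UMIs with no TMM factors they were 98 (1.01%) and 831 (8.57%).

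Most heme synthesis genes and part of the iron, membrane and redox genes were higher above the limit. Of 9 heme synthesis genes 7 were higher and 0 lower, of 21 heme and iron genes 11 and 0, of 20 membrane genes 11 and 1, and of 14 redox genes 8 and 0. Scaled by all UMIs with no TMM factors, 7, 8, 9 and 5 genes of these lists were higher. Mgst3, a microsomal glutathione transferase, was at 63.8 and 51.3 CPM in members and 22.3 and 13.5 below the limit, a log2 fold change of 1.86 ± 0.20 (adjusted p = 0.000596, edgeR). Blvrb was at 411 and 344 against 185 and 129, Slc25a37 at 124 and 115 against 54.5 and 54.4, and Alas2 at 60.8 and 56.5 against 35.9 and 34.8. Those levels lay apart in both embryos. Tal1, Gfi1b and Runx1 did not pass, with Tal1 at 139 and 125 against 141 and 130, Gfi1b at 51.1 and 69.3 against 57.5 and 59.5, and Runx1 at 155 and 194 against 161 and 186, and 4 of 21 regulators were higher and 1 lower, or 10 and 1 with the embryo as a block and 2 and 1 scaled by all UMIs with no TMM factors. The lower one was Gata2, at 5.90 and 15.4 against 29.0 and 44.2, a log2 fold change of -2.06 ± 0.34.

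Endothelial genes and some markers of other tissues were lower in members than below the limit. Kdr, at 3.08 and 1.93 CPM against 26.4 and 19.8, and Cdh5 and Etv2 were among 7 of 11 endothelial genes that were lower, or 10 with the embryo as a block, and 0 were higher. Spi1, the factor PU.1 of myeloid cells, was at 0.939 and 3.85 against 9.72 and 5.80. Ccnd1 was at 12.7 and 4.49 against 49.5 and 56.6 and Cdkn1c at 20.3 and 13.5 against 46.7 and 52.0, while 19 of 20 G1/S and 19 of 20 G2/M genes did not pass. With the embryo as a block 3 G1/S genes were higher and 2 lower, and 4 G2/M genes were higher and 1 lower. Markers of other tissues were also among these genes, with Rspo3, a Wnt agonist, and Epcam, an epithelial adhesion molecule, among the largest changes. Rspo3 was at 4.29 and 1.93 in members against 40.6 and 74.5, and Epcam at 5.90 and 6.42 against 36.7 and 33.4, and 6 of 9 allantois and 4 of 5 neural genes were lower in members. Of the visceral endoderm genes only 3 of 13 were lower, or 11 with the embryo as a block, and of the paraxial and cardiac genes 2 of 8, or 4 with the block. The visceral endoderm list summed to 1196 and 704 CPM below the limit against 491 and 695. How far these markers bear on the other genes lower in members was not tested beyond the count given above.

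Within members, the globin-high group was compared with the globin-low group, again with globins, Gata1 and Klf1 taken out. Few genes passed. By edgeR 4 of 7603 genes (0.0526%) were higher and 7 (0.0921%) lower, and 520 had an unadjusted p under 0.05. Scaled by all UMIs with no TMM factors, 0 were higher and 8 lower, with 586 at an unadjusted p under 0.05. With the embryo as a block 109 (1.43%) were higher and 83 (1.09%) lower. With DESeq2 0 genes passed, with 106 at an unadjusted p under 0.05, and without members holding 3 or more allantois, neural or paraxial genes 0 passed by edgeR, with 409 at an unadjusted p under 0.05.

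Among the 4 genes higher in globin-high members were Mgst3, Slc25a37 and Blvrb. Mgst3 was at 96.8 and 57.2 CPM against 36.6 and 49.7 in globin-low members, a log2 fold change of 1.19 ± 0.23 (adjusted p = 0.0402, edgeR), and its difference was large only in embryo 2. Slc25a37 was at 162 and 136 against 95.3 and 82.9, a log2 fold change of 0.85 ± 0.15. Blvrb was at 537 and 367 against 303 and 293, a log2 fold change of 0.75. Alas2 pointed the same way, at 80.2 and 59.2 against 41.3 and 40.5, but did not pass (adjusted p = 0.0604, edgeR), and passed with the embryo as a block (adjusted p = 3.42e-05). Of the 9 heme synthesis genes 0 passed without the block and 5 were higher with it, among them Alas2, Alad, Urod and Cpox. Alad differed only in embryo 2, at 274 and 146 against 153 and 147.

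The 7 lower genes were Id2, Hmga2, Ifitm1, Marcks, Peg3, Gpc3 and Prtg. Hmga2, a chromatin protein of embryonic and stem cells, had the lowest adjusted p of the comparison, at 15.4 and 17.8 CPM in globin-high members against 81.0 and 57.1 in globin-low members, a log2 fold change of -2.11 ± 0.24 (adjusted p = 0.000327, edgeR). Id2, an inhibitor of basic helix-loop-helix factors, was at 5.67 and 3.94 against 33.6 and 22.1. Marcks, a membrane-bound substrate of protein kinase C, was at 18.2 and 15.8 against 72.9 and 38.7, and Ifitm1 at 21.5 and 25.6 against 93.7 and 49.7. Peg3 and Gpc3, which are broadly expressed in the embryo, and Prtg were lower by 1.65, 1.48 and 1.04 on the log2 scale. All 7 were lower in both embryos. Below the globin limit, levels were higher again for Hmga2, at 128 and 145, for Marcks, at 117 and 115, and for Ifitm1, at 112 and 125, while Id2, at 29.8 and 28.8, was not above its globin-low level in embryo 2. Tal1, at 135 and 101 against 136 and 136, and Mki67, at 250 and 227 against 280 and 273, did not pass. Of 10 tested visceral endoderm genes 0 passed without the block and 6 were lower in globin-high members with it. All 10 were lower in embryo 3, whereas in embryo 2 Spink1, Apob, Amn and Cubn were higher, and Apoe was at 78.6 and 71.0 CPM against 156 and 391. Their part in these results was not tested.

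**Figure D5:**
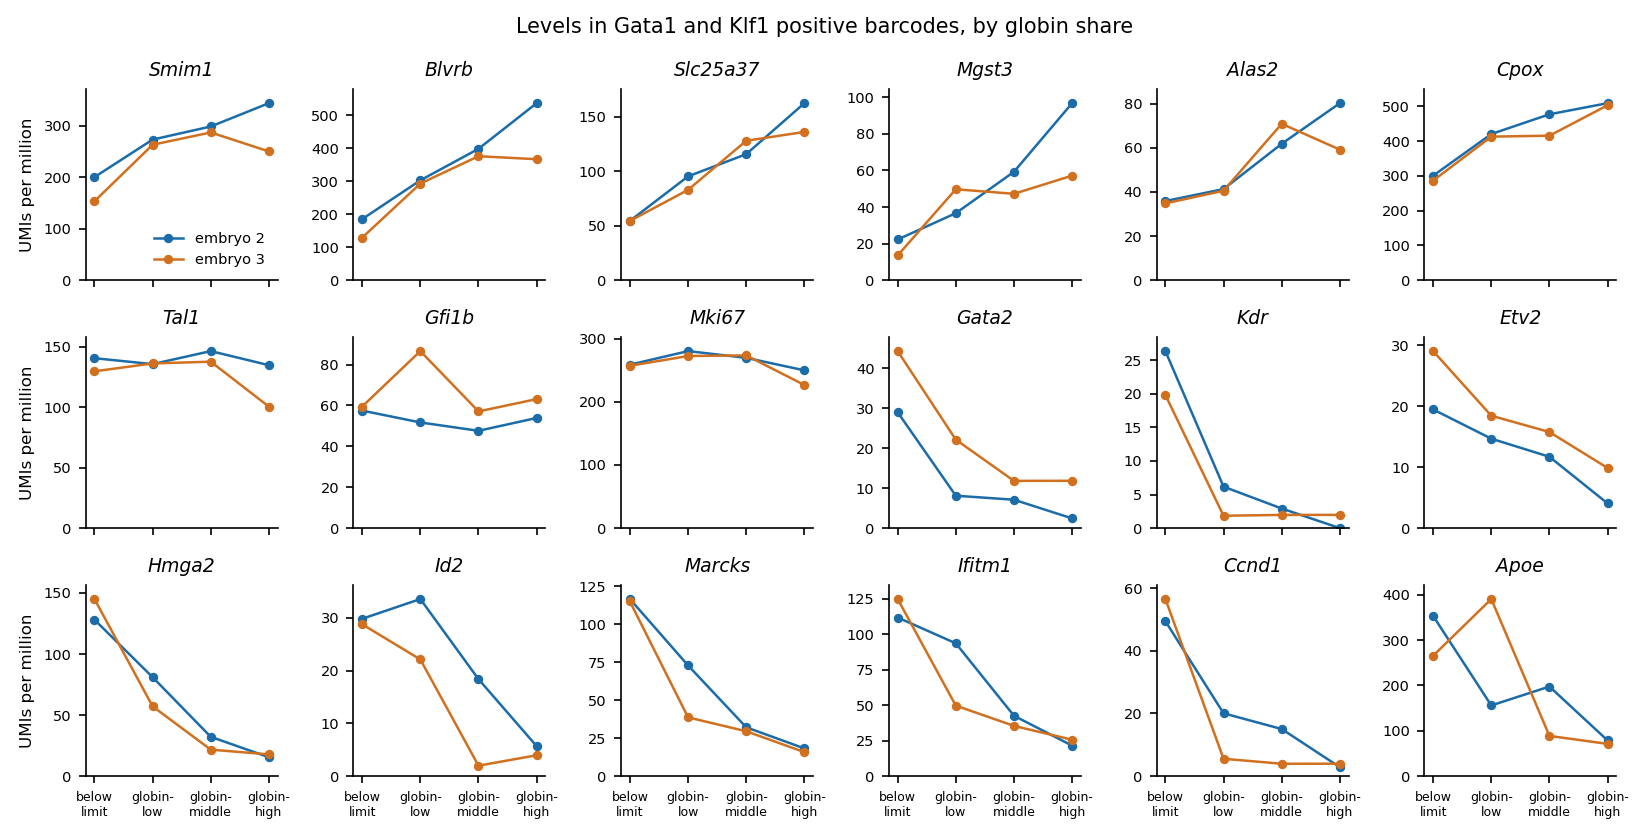
Level in CPM (y axes, each starting at 0) of 18 genes in barcodes with Gata1 and Klf1, from those below the globin limit through globin-low, globin-middle and globin-high members, with 1 line per embryo. Blvrb, Slc25a37 and Cpox climb from left to right in most steps, Tal1, Gfi1b and Mki67 have no steady course, and Hmga2, Marcks and Ccnd1 fall, with Hmga2 going from 128 and 145 to 15.4 and 17.8.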

How the data were processed

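The deposited files hold raw UMI counts per gene and barcode, which the authors made with Cell Ranger 3.1.0 on mm10, 1 library per embryo, with 31054 features. Libraries summed to 207961733, 149341900 and 167503888 UMIs over 6579, 8621 and 8333 barcodes in embryos 1, 2 and 3, and the embryos were genotyped as male in the study. Barcodes were kept by the limits of the study on genes and mitochondrial share. Its later removal of whole clusters taken for doublets or empty droplets was not repeated here, no doublet caller was run, and UMIs were summed per embryo and class. The range of somites given is that of the labels, and the text of the study gives a narrower one. Nothing beside the labels says more of how the embryos relate to each other.

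Sums of embryos 2 and 3 were tested with edgeR 4.0.16 in R 4.3.3 (TMM scaling, filterByExpr, quasi-likelihood test, Benjamini-Hochberg adjustment over all genes tested, threshold 0.05), without a block. The 10 globin genes, Gata1 and Klf1 were taken out first, with Kdr, Cdh5 and Pecam1 for the endothelial comparison. With 2 embryos, p-values measure only the spread between these 2 animals, and DESeq2 1.42.0 was an alternative. The tests were tried on simulated sums, drawn with the same spread for every gene and without pairing by embryo, unlike the data. For globin-high against globin-low members, 20% of 1.5-fold and 78% of 2-fold changes were recovered. In the comparison with other barcodes 48% and 100% were. Both sums of an embryo come from the same animal, so the embryo numbers pair them, and their deviations from the class means correlated across genes by 0.076, 0.0774, 0.134 and 0.146 in the comparisons with other barcodes, of globin-high with globin-low members, with endothelial-gated barcodes and with barcodes below the limit. Levels are CPM, UMIs per 1000000 UMIs of the class. Genes beyond the 17 lists were named as the 10 largest changes each way, past the threshold, with the same sign in both embryos and at 20 CPM or more in the higher class; examples within lists, the comparison with barcodes below the limit and the ratio of Hba-x to Hbb-bh1 were chosen after the data had been seen. The members and lists were chosen with earlier results of these data known. The alternatives were other globin limits, filters, scalings (plain CPM with no TMM factors was added after the data had been seen) and tools, thinned cells, the embryo block, possible doublets left out and 1 embryo left out. Python 3.11.15 with pandas 2.3.3 and scipy 1.17.1 was used. Gene positions and promoter sequences are from RefSeq on GRCm38.p6. Some genes that these rules name are not reported here.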

Additional observations from a re-analysis of the deposited data

Results flagged for a closer look

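In embryo 3, 5 QC barcodes held at least 10 UMIs of the adult beta-globin genes Hbb-bs and Hbb-bt together and none of Hbb-bh1 or Hba-x. They were singled out because adult globin stood there outside the erythroid members, and 0 of them were members. They held 642 adult beta-globin UMIs in all, from 21 to 257 in a barcode, 269 UMIs of Hba-a1 and Hba-a2, and 0 of Gata1, Klf1 and Xist, at a median depth of 14459 UMIs. Embryos 1 and 2 held 0 such barcodes. The source of these UMIs was not tested.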

How the results depend on the processing

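The numbers of genes called in the comparison with other barcodes were within 1.5 times of 3685 higher and 4869 lower, except for 1055 and 1992 without possible doublets, 2410 higher with cells thinned to 5000 UMIs and 1972 higher with no TMM factors. Leaving out every member with 3 or more genes of any other list kept only 44 and 8 members. The megakaryocyte list alone reached 3 genes in 77.8% and 78.3% of members. Of the other barcodes, 92.9% and 95.3% held 3 or more genes of any of these lists. The members left out by this filter can therefore not be read as a count of doublets. Against endothelial-gated barcodes the counts were 1560 and 1779 with DESeq2, 1202 and 1734 without possible doublets and 1391 and 1539 thinned. For barcodes below the limit they were 127 and 130 with DESeq2, 607 and 825 with no filter, 958 and 968 with the embryo as a block, 80 and 150 with at least 2 UMIs of Gata1 and of Klf1, 0 and 0 by edgeR without possible doublets, 73 and 102 without barcodes of other lineages and 31 and 70 thinned. For globin-high against globin-low members they were 0 and 0 with DESeq2, 19 and 52 with no filter, 109 and 83 with the block, 0 and 1 at a globin limit of 100, 38 and 79 at 25, 2 higher with at least 2 UMIs of both genes, 0 and 0 without members of other lineages, 1 and 0 thinned, and 0 and 2 with 2 groups in place of 3. Scaled by all UMIs with no TMM factors, 6862 genes were lower against other barcodes, and the genes higher and lower were 1510 and 3656 against endothelial-gated barcodes, 98 and 831 against those below the limit, and 0 and 8 between globin-high and globin-low members. Among the list genes whose higher call then ended were Egfl7, Ets1, Pf4, Spi1 and Top2a against other barcodes, Cbfa2t3 against endothelial-gated barcodes and Myc against those below the limit, and the call of all 4 genes higher in globin-high members ended too. The block moved the total counts of the other 2 comparisons by less than 1.5 times, and the printed list counts that it moved by more stand beside those lists with both values. The share of members was 3.47% and 0.227% in embryos 2 and 3 at a limit of 100, 6.81% and 1.75% at 25, 3.25% and 0.694% with at least 2 UMIs, 2.08% and 0.42% thinned, and 7.29% in embryo 2 by globin alone. The Hba-x to Hbb-bh1 ratio was 1.00 and 0.771 at a limit of 100 and 0.874 and 0.493 at 25, Hbb-y to Hbb-bh1 0.0328 and 0.0709 at 100 and 0.0455 in embryo 3 at 25, and Hba-a1 to Hba-x 0.0762 and 0.104 at 100. Without possible doublets Fermt3 turned to -0.297 against endothelial-gated barcodes and Slc2a1 to 0.126 against those below the limit. The cause was not tested. With 1 embryo left out no spread remained, so no genes could be called, and globin-high and globin-low members were not compared without possible doublets, since too few members were left. The 83 members of embryo 3 limit what could be found in it.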
